A study of Homo sapiens with 4 samples.

Results

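The expressed long intergenic noncoding RNAs of HCC1954 cells were taken as every gene annotated as lincRNA in the deposited table whose raw read counts summed to at least 400 over the 4 samples. Genes on chromosomes X and Y and the snoRNA hosts GAS5, ZFAS1 and SNHG were left out. The rule gave 96 genes of 58735 in the table. The table held 7629 lincRNA genes, 3079 of them with at least 1 count and 107 with at least 400, of which 7 lay on chromosomes X and Y and 4 were SNHG genes. The members were thus chosen by their summed count, so their abundance is given as a description. Just under the limit lay EIF3J-DT and LINC01503 with 389 counts each and CR392039.3 with 390, and just above it AC073335.2 with 409 and AP001527.2 and NUP50-DT with 412 each.

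HCC1954 is an established human breast carcinoma line with high ERBB2. The samples were 2 with a scrambled hairpin (shCON) and 2 with hairpins against ZDHHC15 (shZDHHC15), a palmitoyltransferase that adds palmitate to cysteines of other proteins. All cells were grown in RPMI-1640 and received GIPZ lentiviral shRNA plasmids. The labels give both a stable knockdown and a transient transfection with harvest at 36 h, and they do not say whether the samples of a group were separate cultures or different hairpins, so p-values measure the spread between these samples, which may be technical. ZDHHC15 had 17617 and 15716 counts in shCON and 0 and 0 in shZDHHC15, at least 6050-fold lower against a floor of 3 counts per library. The labels name no deletion of the gene.

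Total counts ranged from 17560982 to 19118704 per sample, and the members took 0.301% and 0.263% of them in shCON and 0.24% and 0.254% in shZDHHC15. All 9 epithelial markers had at least 10 counts in every sample, and their summed level, mostly keratins and ERBB2, was 22000 and 24200 CPM in shCON and 11500 and 12300 CPM in shZDHHC15. Of 10 leukocyte markers 5 were at or under 3 counts in every sample, and CD3D, CD3E and MS4A1 were at 0. The highest count in any sample was 177 for CSF1R and 25 for CD14. The 10 markers summed to between 5.75 and 11.4 CPM, highest in shCON. Of 7 fibroblast markers 5 were at or under 3 counts and LUM was at 0, while COL1A1 reached 214 counts. Together the 7 summed to 5.81 to 11.5 CPM. The 4 endothelial markers (PECAM1, VWF, CDH5 and KDR) summed to 57.1 and 57.1 CPM in shCON and 107 and 101 CPM in shZDHHC15. The part of these marker shifts in the results below was not tested, and in bulk samples fewer cells of a type and less RNA per cell cannot be told apart.

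Long intergenic noncoding RNAs are transcribed, spliced and often polyadenylated like messenger RNAs but encode no known protein. Some act in the nucleus as scaffolds of bodies such as paraspeckles, some bind RNA-binding proteins or microRNAs in the cytoplasm, some are precursors from which microRNAs or snoRNAs are cut, and for many the act of transcription beside a coding gene is the only feature known. They are usually less abundant than messenger RNAs and vary more between cell types.

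Levels were compared per length, as CPM (the read count over the TMM-scaled library size) per kb of joined exons. The median member had 4.27 CPM per kb, with a range from 0.786 to 61.6, beside a median of 7.77 for the 9858 protein-coding genes with the same minimum count. Members were 348 to 22767 bases long with a median of 2990, and 26 of 96 had 1 exon block. MALAT1, NORAD, NEAT1, UCA1 and AL161431.1 were the 5 most counted members in every sample and together took 46.8% to 52.3% of the members' counts.

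NORAD, which binds Pumilio proteins in the cytoplasm, was the most abundant per length over the 4 samples at 61.6 CPM per kb. UCA1, first found in bladder carcinoma, had 55.9 and AL161431.1 42.2. Z98257.1 followed with 37.9, MALAT1 of the nuclear speckles with 32.8, AC245041.1 with 31.9, AC004816.1 with 29.8, AC015912.3 with 25.5, LINC02001 with 24.9 and AP001505.1 with 21.9 CPM per kb. LINC02001 is listed by RefSeq as SNHG30, a snoRNA host whose exons hold SNORD7, and the rule kept it under its older name. The order was not the same in both groups. In shCON UCA1 (65.9) and AL161431.1 (59.3) had higher means than NORAD (56.8), and in shZDHHC15 both were lower (45.8 and 25 beside 66.4 CPM per kb).

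**Figure D1:**
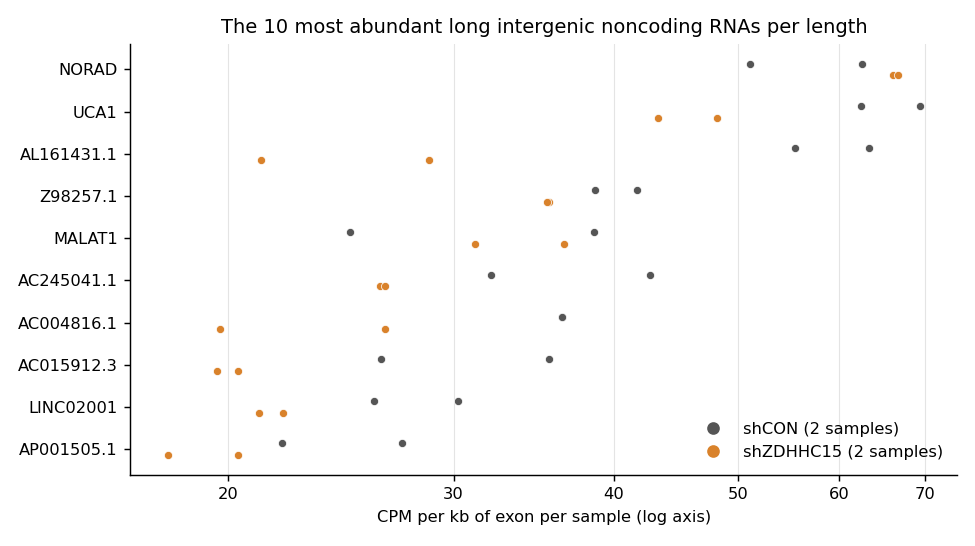
Level of the 10 most abundant long intergenic noncoding RNAs in CPM per kb of exon (x axis, log scale), 1 point per sample, 2 shCON samples in grey and 2 shZDHHC15 samples in orange. NORAD was at 56.8 in shCON and 66.4 in shZDHHC15 on average, while AL161431.1 fell to 25 in shZDHHC15.

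The transcript of NORAD carries the motif to which Pumilio proteins bind, searched on the transcript strand as TGTA, any base and ATA. It was found 15 times in the 5339 bases of NORAD (chr20:36045622-36050960, minus strand, 1 exon), as TGTATATA 10 times, TGTAAATA 4 times and TGTACATA 1 time. The member with the next most matches was NEAT1 with 6, and 19 of 96 members held at least 1. NORAD shares near-identical stretches with 3 other genes, the longest 1036 bases at 98.166% with LINC02211. The search was added after the levels had been seen, and a match is a description and not a bound site. One stretch of each spelling is shown from the GENCODE transcript, with the motif in capitals and the position of its first base in the transcript.
NORAD 1140: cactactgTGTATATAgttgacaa
NORAD 1241: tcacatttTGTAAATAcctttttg
NORAD 1451: gtatatagTGTACATAaaggacag

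The comparison of shZDHHC15 with shCON asked which of these RNAs changed with loss of ZDHHC15. With edgeR's quasi-likelihood test, adjusted by Benjamini-Hochberg over all 15817 genes tested, at an adjusted p of 0.05, 14 members rose, 34 fell and 48 were not called. All 96 passed the filter on low counts. Among all genes tested, 21.7% rose and 20.3% fell, 42% in either direction. Among the 10687 tested genes with at least 400 counts, 24.6% rose and 25.8% fell, 50.4% in either direction. The share of members called was thus the share of the background, 50%, while its split was 14.6% higher and 35.4% lower. With a change of at least 2-fold as well, 6 members rose and 10 fell, where 5.06% of the background rose and 2.51% fell. The 2 groups did not overlap in 77 members, 22 higher and 55 lower in shZDHHC15, 80.2% beside 78.6% of the background. When 1 sample at a time was dropped, 8 of the 14 rises and 25 of the 34 falls were called every time. The calls of BAIAP2-DT, FOXD2-AS1, MIR210HG, OLMALINC, LY6E-DT and AC073335.2 were lost at least once, with log2 fold changes from 0.30 to 0.79 over these fits. Among the falls lost at least once were those of LINC02001, AC245041.1, AC027031.2, LINC01123, LINC01184, AC125807.2, AC015912.3 and MIR193BHG, with log2 fold changes from -0.86 to -0.25. Of the 48 calls 45 held without shCON 1, 41 without shCON 2, 37 without shZDHHC15 1 and 42 without shZDHHC15 2.

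The median log2 fold change of the members was -0.28, with quartiles of -0.63 and 0.13, beside -0.01 for all tested genes with the same minimum count and -0.00 for the protein-coding genes among them. The 95 antisense genes with the same minimum count showed a median of -0.18, and 12 of them rose and 31 fell. A shift toward lower values was therefore not particular to genes annotated as lincRNA. The median standard error was 0.17 for members and 0.12 for protein-coding genes, whose median summed count was 3030 beside 808. Of the 34 members with at least 1000 counts 5 rose and 17 fell, and of the 62 below that 9 rose and 17 fell.

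**Figure D2:**
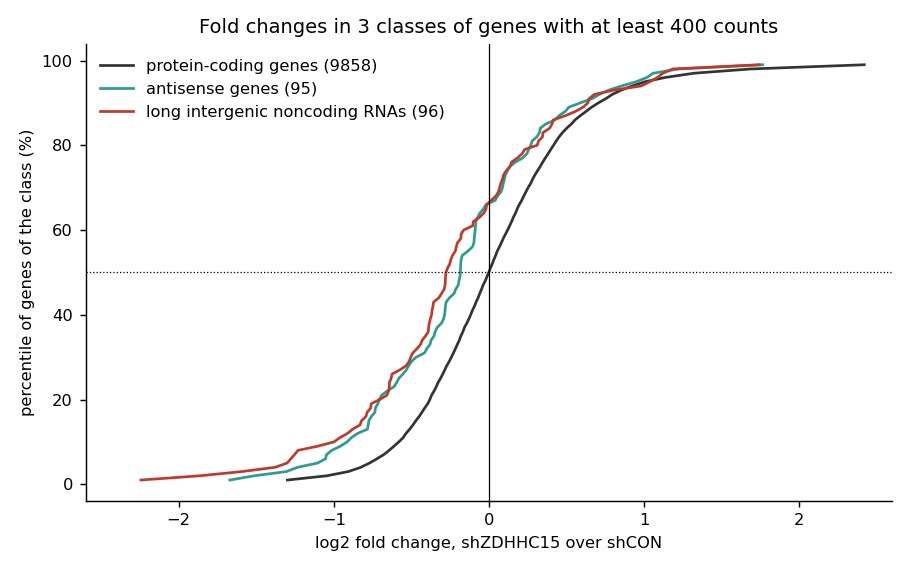
Percentile of genes (y axis, %) against log2 fold change of shZDHHC15 over shCON (x axis) for 96 long intergenic noncoding RNAs, 95 antisense genes and 9858 protein-coding genes with at least 400 counts, drawn from the 1st to the 99th percentile. The curves of both noncoding classes cross the middle left of 0, at -0.28 and -0.18, and that of protein-coding genes at -0.00.

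**Figure D3:**
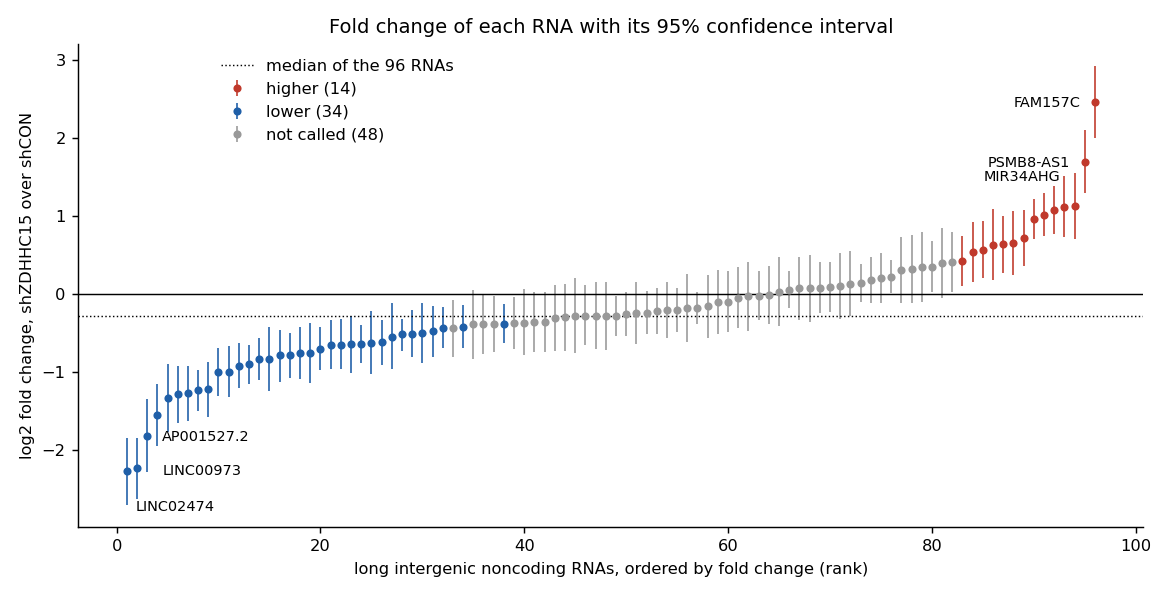
Log2 fold change of shZDHHC15 over shCON (y axis) of the 96 long intergenic noncoding RNAs in rank order (x axis), with 95% confidence intervals from edgeR's quasi-likelihood fit. Red points rose (14), blue points fell (34) and grey points were not called (48), between -2.28 for LINC02474 and 2.47 for FAM157C.

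The 2 largest falls were in LINC02474 and LINC00973, RNAs whose roles are little known. LINC02474 (chr1:221966341-221984964) had 299 and 224 counts in shCON and 53 and 64 in shZDHHC15, a log2 fold change of -2.28 ± 0.202 (SE; adjusted p = 6.05e-07 by edgeR's quasi-likelihood test). LINC00973 (chr3:98981058-98983096) had 303 and 258 counts in shCON and 61 and 68 in shZDHHC15, -2.24 ± 0.184 (adjusted p = 2.61e-07 by the same test). Both had more than 4-fold fewer reads in each depleted sample than the lower control after scaling, with no exon shared with another gene. Their mean levels went from 14.8 ± 2.21 to 3.05 ± 0.293 CPM and from 16 ± 0.937 to 3.37 ± 0.133 CPM (SD, n = 2).

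The 300 bases around the start of LINC00973 are shown because it is the member with the largest fall for which RefSeq gave a start within 100 bases of that of the table. They lie at chr3:98980805-98981104 (plus strand, RefSeq, GRCh38.p14), intergenic up to the first exon, whose first base is the 254th printed. Capitals mark a match to the AP-1 motif TGANTCA.
LINC00973: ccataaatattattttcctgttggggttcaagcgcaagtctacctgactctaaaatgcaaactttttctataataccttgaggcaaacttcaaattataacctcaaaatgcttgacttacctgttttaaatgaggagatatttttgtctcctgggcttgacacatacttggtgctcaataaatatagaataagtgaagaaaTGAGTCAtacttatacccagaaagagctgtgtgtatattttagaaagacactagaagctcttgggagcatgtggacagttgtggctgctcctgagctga

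AP001527.2 fell together with YAP1, the transcriptional coactivator held in check by the Hippo pathway. The 2 genes start 4 bases apart on opposite strands of chromosome 11, AP001527.2 at 102110457 on the minus strand and YAP1 at 102110461 on the plus strand. AP001527.2 had 166 and 149 counts in shCON and 52 and 45 in shZDHHC15, a log2 fold change of -1.82 ± 0.218 (adjusted p = 1.25e-05, edgeR's quasi-likelihood test). YAP1 had 7764 and 7011 counts in shCON and 1024 and 1272 in shZDHHC15, a log2 fold change of -2.81 ± 0.105 (adjusted p = 4.30e-11 by the same test). The groups did not overlap in either gene. AP001527.2 has 1 exon of 631 bases (chr11:102109827-102110457) and shares no exon base with YAP1. It sits near the count limit of the rule, with 412 counts.

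The bases before the start of YAP1 are shown because they hold the start of AP001527.2. They lie at chr11:102110197-102110460 (plus strand, RefSeq, GRCh38.p14), and the first 261 are inside the exon of AP001527.2, which runs from the 261st base to the left. Capitals mark the E-box CACGTG and the TEAD motif GGAATG.
YAP1: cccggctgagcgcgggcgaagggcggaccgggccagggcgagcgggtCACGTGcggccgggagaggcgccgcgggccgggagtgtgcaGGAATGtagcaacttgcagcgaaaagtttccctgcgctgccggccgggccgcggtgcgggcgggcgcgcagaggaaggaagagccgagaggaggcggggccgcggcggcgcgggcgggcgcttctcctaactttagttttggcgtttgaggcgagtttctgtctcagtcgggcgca

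OSER1-DT, the divergent transcript of the oxidative stress responsive gene OSER1, had 235 and 252 counts in shCON and 97 and 84 in shZDHHC15, a 2.93-fold fall (log2 fold change -1.55 ± 0.186, adjusted p = 1.22e-05 by edgeR's quasi-likelihood test). OSER1 fell less, from 100 ± 3.53 to 75.1 ± 7.63 CPM (log2 fold change -0.42 ± 0.104, adjusted p = 0.00493). The stretch between the 2 starts and the first bases of OSER1-DT is shown as the second such pair that fell (chr20:44210792-44211009, plus strand, RefSeq, GRCh38.p14), with OSER1-DT starting at the 169th base and an E-box in capitals.
OSER1-DT: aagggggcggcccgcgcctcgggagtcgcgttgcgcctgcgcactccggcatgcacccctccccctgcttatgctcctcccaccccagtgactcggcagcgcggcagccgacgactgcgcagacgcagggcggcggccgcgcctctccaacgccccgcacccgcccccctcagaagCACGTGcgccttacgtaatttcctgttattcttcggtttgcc

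AL161431.1 (chr13:109269634-109278512) was the most abundant member to fall at least 2-fold. It had 5863 and 4750 counts in shCON and 2015 and 2874 in shZDHHC15, a 2.37-fold fall (log2 fold change -1.24 ± 0.125, adjusted p = 2.23e-06 by edgeR's quasi-likelihood test). A stretch of it is 97.959% identical to SLC44A3-AS1. The nearest protein-coding gene, IRS2, an adaptor of the insulin receptor, starts 516934 bases away and fell too, from 90.8 ± 0.292 to 43.9 ± 2.98 CPM (adjusted p = 1.85e-06). Lower still in count, SFTA1P, a surfactant-associated pseudogene, went from 232 and 219 counts to 94 and 107 (-1.29), LINC02009 from 333 and 260 to 136 and 131 (-1.27), and MGC12916 from 338 and 261 to 130 and 149 (-1.22). AC117402.1 went from 228 and 205 counts to 70 and 117 (log2 fold change -1.34), and its depleted samples differed from each other by more than 0.5 on the log2 scale. In each of these the groups did not overlap and the call held without any 1 sample.

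LINP1, a scaffold of the Ku and DNA-PK proteins in non-homologous end joining, fell from 388 and 302 counts to 185 and 191 (1.99-fold, adjusted p = 1.16e-04 by edgeR's quasi-likelihood test). EPB41L4A-AS1 fell from 425 and 474 counts to 222 and 269 (2-fold, adjusted p = 8.06e-05 by the same test), while EPB41L4A, with which it shares 1659 exon bases on the opposite strand, rose from 54 and 43 counts to 155 and 97. Here the 2 genes of 1 locus moved in opposite directions. Whether counting used the strand is not stated, so reads from the shared bases cannot be told apart.

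The largest rise was in FAM157C (chr16:90102271-90178344), which had 51 and 39 counts in shCON and 235 and 309 in shZDHHC15, a 5.53-fold rise (log2 fold change 2.47 ± 0.216, adjusted p = 5.23e-07 by edgeR's quasi-likelihood test). Its transcripts share stretches of at least 150 bases and 97% identity with 40 other genes, the longest being 1787 bases at 99.384% with FAM157B. Its counts could thus hold reads of relatives, depending on how multiply mapped reads were treated, and which copy rose is uncertain.

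PSMB8-AS1 (chr6:32844086-32846495) lies among the immunoproteasome and peptide transporter genes of the major histocompatibility complex. It had 72 and 60 counts in shCON and 232 and 237 in shZDHHC15, a 3.26-fold rise (log2 fold change 1.70 ± 0.19, adjusted p = 6.11e-06 by edgeR's quasi-likelihood test). All 3 protein-coding genes that share exon bases with it rose as well. PSMB8, an immunoproteasome subunit, shares 618 bases on the opposite strand and had a log2 fold change of 1.09. TAP1, of the peptide transporter, shares 456 bases on the opposite strand and had 1.61. PSMB9, another immunoproteasome subunit, shares 174 bases on the same strand, starts 50 bases from PSMB8-AS1 and had 1.76. The reads of PSMB8-AS1 cannot be told apart from theirs in the shared bases.

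The bases around its start are shown because they hold matches to 2 motifs bound by interferon-responsive factors (chr6:32844036-32844135, plus strand, RefSeq, GRCh38.p14), with PSMB8-AS1 starting at the 51st base and PSMB9 at the base after the last. Capitals mark the ISRE, searched as GAAA, any 2 bases and GAAA, and the GAS motif TTCNNNGAA. The longer window searched below also held a match to the TEAD motif GGAATG, on the opposite strand and before the bases printed.
PSMB8-AS1: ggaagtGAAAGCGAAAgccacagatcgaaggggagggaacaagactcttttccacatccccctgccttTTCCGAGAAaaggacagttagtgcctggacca

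Over the 30 members with a RefSeq start within 100 bases of the start in the table, windows of 250 bases before to 50 after the start were searched on both strands. The ISRE was found in 3 (10%), beside 3.57% of all 35116 windows, the GAS motif in 3 (10%) beside 7.66%, the TEAD motif in 2 (6.67%) beside 14%, AP-1 in 3 (10%) beside 7.71% and the E-box CACGTG in 5 (16.7%) beside 7.26%. Of the 5 windows of members that rose, those of FOXD2-AS1 and PSMB8-AS1 held the ISRE, and of the 11 of members that fell none did. These counts are too few to set any motif apart, and AP001527.2 had no window of its own.

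Among the other rises, MUC20-OT1 had 265 and 256 counts in shCON and 551 and 604 in shZDHHC15 (log2 fold change 1.02, adjusted p = 1.91e-05 by edgeR's quasi-likelihood test). It shares 1820 exon bases on the same strand with MUC20, a membrane mucin, which rose from 91 and 95 counts to 299 and 309, and stretches with SDHAP1 and SDHAP2. LINC02015 had 230 and 203 counts in shCON and 533 and 461 in shZDHHC15 (1.08, adjusted p = 3.94e-05). It shares no exon with another gene, so its rise does not rest on shared reads of that kind.

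LINC00342 had 478 and 250 counts in shCON and 826 and 888 in shZDHHC15 (log2 fold change 1.12 ± 0.181, adjusted p = 1.88e-04 by edgeR's quasi-likelihood test). Its control samples differed the most of any member, by 0.82 on the log2 scale, and the log2 fold change lay between 0.76 and 1.57 when a sample was left out. It shares a stretch of 654 bases at 98.93% identity with AC092683.1. AC093627.4, with 379 and 367 counts in shCON and 806 and 778 in shZDHHC15, was steadier (0.96 ± 0.12). OLMALINC rose less, from 131 and 120 counts to 196 and 211 (0.57). Its neighbour SCD, the stearoyl-CoA desaturase that makes oleate and palmitoleate, starts 26389 bases away on the same strand and rose from 338 ± 11.7 to 892 ± 148 CPM (1.40, adjusted p = 1.30e-07 by the same test). LINC01559 (0.72), LY6E-DT (0.65), FOXD2-AS1 (0.64), AC073335.2 (0.63) and BAIAP2-DT (0.42) made up the smaller rises outside the microRNA hosts.

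**Figure D4:**
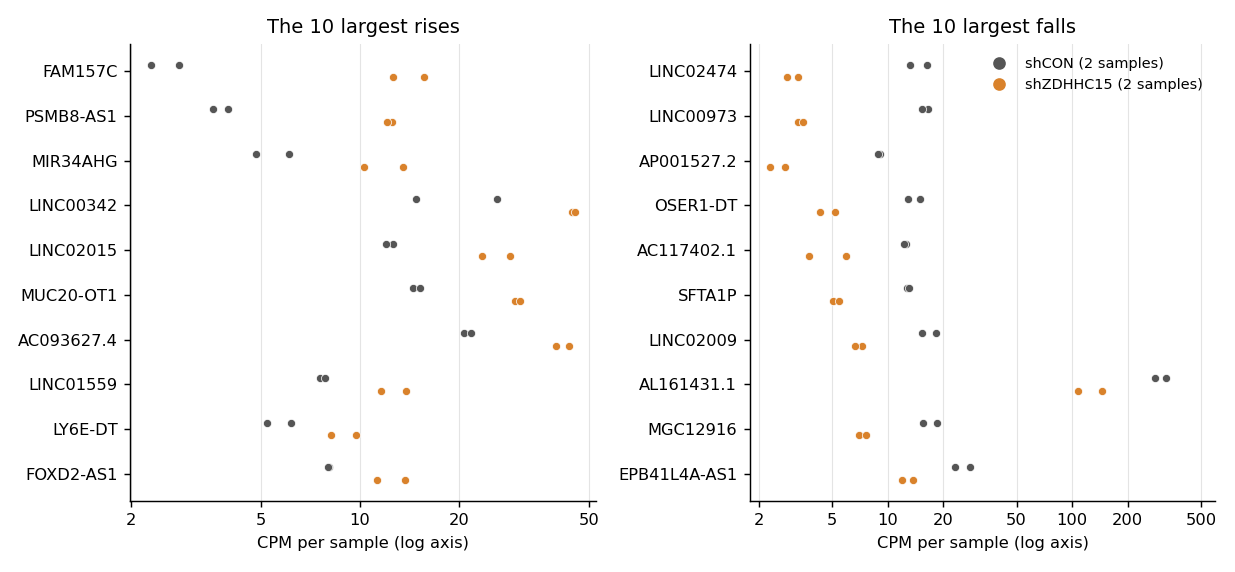
CPM in each sample (x axis, log scale) of the 10 members with the largest rises (left) and the 10 with the largest falls (right), 2 shCON samples in grey and 2 shZDHHC15 samples in orange. In none of the 20 do the groups overlap, and LINC00342 has the widest gap between its controls, 26.2 and 14.8 CPM.

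A first set of members is known for the microRNAs cut from them. By name 5 members were microRNA hosts, of which 2 rose and 3 fell, with a median log2 fold change of -0.55. Among all tested genes with at least 400 counts 24.6% rose and 25.8% fell, and 5 hosts are too few to set apart from this. The list had 63 names in the table, of which 40 were lincRNA genes under the count limit. By position, 13 distinct mature microRNAs of the RefSeq table used lay inside 7 members, all on the strand of the host, and no 2 of them shared a seed. GENCODE also places the microRNA genes MIR612 in NEAT1 and MIR1204 in PVT1 on the strand of the host, and their mature sequences are not shown. The read counts are those of the host gene and do not measure the mature microRNA. The best known product of each host is shown, with the seed (bases 2 to 8) in capitals, first for hosts that rose and then for hosts that fell.
hsa-miR-34a-5p: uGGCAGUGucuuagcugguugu
hsa-miR-210-3p: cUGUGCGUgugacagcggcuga
hsa-miR-570-3p: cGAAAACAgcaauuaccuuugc
hsa-miR-22-3p: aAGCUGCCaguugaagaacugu
hsa-miR-193b-3p: aACUGGCCcucaaagucccgcu
hsa-miR-365a-3p: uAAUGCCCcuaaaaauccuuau
hsa-miR-4435: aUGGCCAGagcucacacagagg

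MIR34AHG, host of the p53-induced miR-34a (chr1:9151735-9151756, minus strand, for the 5p arm), rose from 111 and 81 counts to 192 and 265 (log2 fold change 1.13 ± 0.201, adjusted p = 4.21e-04 by edgeR's quasi-likelihood test). MIR210HG, host of the hypoxia-induced miR-210 (chr11:568112-568133, minus strand, for the 3p arm), had 126 and 157 counts in shCON and 220 and 228 in shZDHHC15 (0.54 ± 0.179, adjusted p = 0.0259). The call of MIR34AHG held in all 13 refits and that of MIR210HG in 7. MUC20-OT1, described above, holds miR-570 (chr3:195699460-195699481, plus strand, for the 3p arm).

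MIR22HG, host of miR-22 (chr17:1713914-1713935, minus strand, for the 3p arm), fell from 619 and 540 counts to 352 and 468 (log2 fold change -0.62 ± 0.134, adjusted p = 0.00178 by edgeR's quasi-likelihood test). MIR193BHG, host of miR-193b and miR-365a (chr16:14304017-14304038 and chr16:14309340-14309361, plus strand, for the 3p arms), had 121 and 127 counts in shCON and 92 and 93 in shZDHHC15 (-0.55 ± 0.2, adjusted p = 0.0393). It was called in 6 of 13 refits and in 1 of 4 with a sample left out, so this fall is the least firm of the hosts.

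CYTOR and MIR4435-2HG are near copies of each other on both arms of chromosome 2, and each holds a copy of miR-4435 (chr2:87629764-87629785 and chr2:111321061-111321082). CYTOR had 876 and 947 counts in shCON and 501 and 564 in shZDHHC15 (log2 fold change -0.90 ± 0.119, adjusted p = 3.04e-05 by edgeR's quasi-likelihood test). MIR4435-2HG had 479 and 434 counts in shCON and 255 and 321 in shZDHHC15 (-0.79 ± 0.137, adjusted p = 3.35e-04). Their transcripts share 2254 bases at 99.246% identity, so the split of reads between them is uncertain and the 2 falls cannot be taken as independent. MIR4435-2HG also shares 727 exon bases on the opposite strand with BCL2L11, the proapoptotic BIM, which rose by 0.74.

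Of the RNAs of nuclear bodies NEAT1 fell and MALAT1 was not called, and the difference between them was not tested. NEAT1, the scaffold of paraspeckles (chr11:65422774-65445540), fell from 313 and 261 CPM to 164 and 204 (log2 fold change -0.64 ± 0.115, adjusted p = 4.55e-04 by edgeR's quasi-likelihood test). MALAT1 (chr11:65497688-65506516), its neighbour on the same strand, had 6212 and 3710 counts in shCON and 5113 and 6338 in shZDHHC15, with overlapping groups and a log2 fold change of 0.09 (95% confidence interval -0.23 to 0.41, adjusted p = 0.661). The control samples of MALAT1 lay farther apart than the group means, and without the first of them it was called higher at 0.41 (adjusted p = 3.59e-04). NORAD had 6089 and 4601 counts in shCON and 6571 and 6991 in shZDHHC15 (0.22, interval 0.01 to 0.44, adjusted p = 0.0889), and without the first control it was called higher too at 0.35 (adjusted p = 0.00264). It was also called higher with library size only (0.30, adjusted p = 0.035) and with a replicate block (0.23, adjusted p = 0.0315). Of these 3 members of the nuclear and abundant RNA list 1 fell and 2 were not called.

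NEAT1 was also the 1 member on the interferon and inflammation list, whose other 14 names were of another biotype (5) or lincRNA genes under the count limit (9). On the list of p53 and DNA damage, MIR34AHG rose and NEAT1 fell. The hypoxia list had 4 members, of which MIR210HG rose, NEAT1 and CYTOR fell and PVT1 was not called, with a median of -0.29. Among all tested genes with at least 400 counts 50.4% were called, 24.6% higher and 25.8% lower. Lists of so few members cannot be set apart from that share.

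Matched by gene name, the list of RNAs studied in breast and other carcinomas had 9 members. Of these 0 rose, 7 fell and 2 were not called, with a median log2 fold change of -0.62. Beside this, 24.6% of the tested genes with at least 400 counts rose and 25.8% fell, and 14.6% of all members rose and 35.4% fell. The near copies CYTOR and MIR4435-2HG are 2 of the 7. The list also held an older name of NORAD, which was not matched, and NORAD was not called. UCA1 (chr19:15828206-15836326) had 5250 and 4374 counts in shCON and 3728 and 3541 in shZDHHC15 (-0.52 ± 0.0961, adjusted p = 5.31e-04 by edgeR's quasi-likelihood test). LINC00662 had 526 and 482 counts in shCON and 299 and 319 in shZDHHC15 (-0.83 ± 0.126, adjusted p = 1.10e-04). CYTOR, MIR4435-2HG, MIR22HG, MIR193BHG and EPB41L4A-AS1 were the other 5 that fell. PVT1 (0.05, 95% confidence interval -0.18 to 0.29) and CRNDE (-0.22, interval -0.51 to 0.07) were not called, and their intervals leave out a 2-fold change either way. The list was written with earlier results of these samples known and is not independent evidence of its direction. LNCAROD, named for activation of DKK1 and outside the list, fell from 522 and 467 counts to 344 and 316 (-0.71).

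Among the 30 members with the highest mean counts, those with the smallest changes were PVT1, MALAT1, EBLN3P (0.14), BLACAT1 (0.18) and Z98257.1 (-0.18). EBLN3P, a copy of a bornavirus-like nucleoprotein gene, had 965 and 763 counts in shCON and 1024 and 1041 in shZDHHC15, with an interval of -0.10 to 0.38. Z98257.1 had 2012 and 1728 counts in shCON and 1750 and 1839 in shZDHHC15, with an interval of -0.39 to 0.02. None of these 5 intervals reaches a 2-fold change, and a p that misses the threshold does not show that their levels were equal.

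Position relative to coding genes was not used by the rule. Of the 96 members 28 had their nearest protein-coding start within 1 kb on the opposite strand, at a median distance of 267 bases. Only the nearest start was used, so PSMB8-AS1, nearest to PSMB9 on the same strand, is not among them. PSMB8 also starts within 1 kb of PSMB8-AS1 on the opposite strand, and both rose. In the 28 pairs 2 members rose and 10 fell, while 11 of the 28 neighbours rose and 7 fell. Of the other 68 members 12 rose and 24 fell, and of their 55 tested nearest neighbours 16 rose and 14 fell. Of all protein-coding genes with at least 400 counts 25.1% rose and 25.5% fell, and the differences between these sets were not tested. Both genes of a pair were called in 6, and 3 of these moved in the same direction. They were AP001527.2 with YAP1, OSER1-DT with OSER1, and LY6E-DT (0.65) with LY6E (0.32), a membrane protein induced by interferon. LY6E-DT shares 88 exon bases with LY6E on the opposite strand, and LY6E was far more abundant (652 beside 5.69 CPM in shCON). Reads from these shared bases cannot be told apart, since the strand setting is not stated.

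In the other 3 pairs the partners moved in opposite directions. MIR22HG fell by 0.62 on the log2 scale while WDR81 rose by 0.35, LINC01184 fell by 0.50 while SLC12A2, the sodium, potassium and chloride cotransporter, rose by 0.43, and BAIAP2-DT rose by 0.42 while BAIAP2 fell by 0.55. Further members fell beside a neighbour that was not called, such as URB1-AS1 (-0.83) beside URB1 (0.14), AP002360.1 (-0.79) beside EMSY (0.27) and AC015912.3 (-0.63) beside TRIM25 (0.21). APTR (0.07) and SCAMP1-AS1 (0.32) were not called beside RSBN1L (0.87) and SCAMP1 (0.69), which rose. Across the 28 pairs Pearson's r between the log2 fold changes was 0.51 and Spearman's rho 0.24, and without AP001527.2 r was 0.12 and rho 0.16. Across the other members with a tested nearest neighbour (55) r was 0.48 and rho 0.38, and across those with starts over 50 kb apart (24) r was 0.42 and rho 0.26. The points are genes measured in the same 4 libraries and not replicates.

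**Figure D5:**
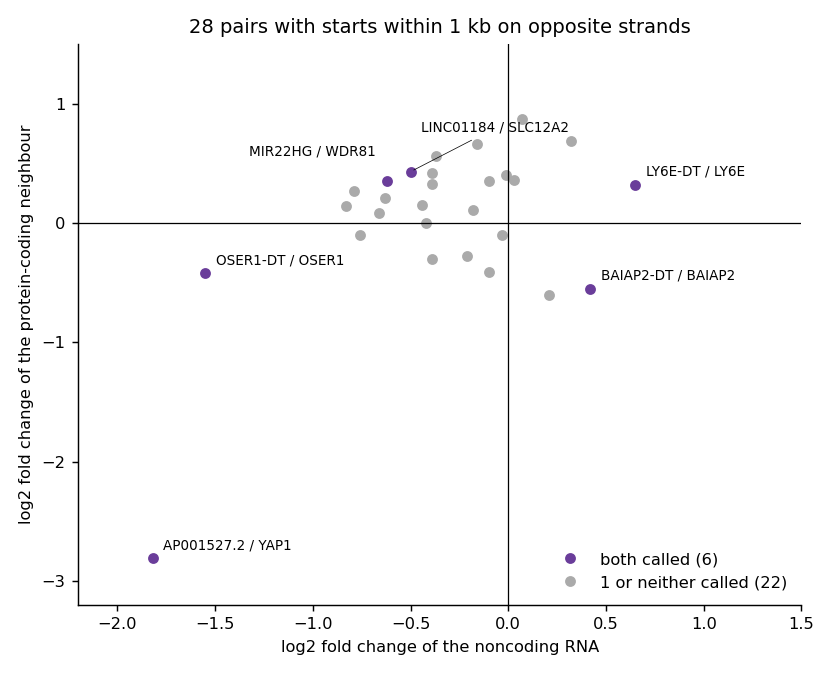
Log2 fold change of the protein-coding neighbour (y axis) against that of the long intergenic noncoding RNA (x axis). Points are the 28 pairs in which the nearest protein-coding start lies within 1 kb on the opposite strand. Purple points are the 6 pairs with both genes called, 3 in the same and 3 in opposite directions, and AP001527.2 with YAP1 lies far from the rest at -1.82 and -2.81.

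Members with and without shared sequence were found among the calls. Of 34 members with exon bases shared with another gene 5 rose and 14 fell (median -0.23). Of 15 with a near-identical stretch elsewhere 3 rose and 5 fell (-0.28), and of 54 with neither 8 rose and 18 fell (-0.27). For scale, 50% of all members and 50.4% of all tested genes with at least 400 counts were called. In the 16 pairs of a member and a protein-coding gene with shared exon bases in which both genes were tested, both were called in 7, of which 5 moved in the same direction. PSMB8-AS1 enters these with each of PSMB8, TAP1 and PSMB9, so the pairs are not independent. LINC01184 and AC015813.1 also share exon bases with CCDC192 and AC015813.2, which did not pass the filter on low counts.

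Members lay on 20 chromosomes. On chromosome 10, 1 of 7 members rose and 6 fell, with a median of -0.76. On chromosome 7, 2 of 9 rose and 0 fell, with a median of 0.07. On chromosome 3, 2 of 5 rose and 3 fell (median -1.27), and on chromosome 19, 0 of 7 rose and 4 fell (-0.42). Among all members 14.6% rose and 35.4% fell. Among all tested genes with at least 400 counts 24.6% rose and 25.8% fell. The 7 on chromosome 10 included the neighbours AC245041.1 (-0.51) and AC245041.2 (-0.76), whose spans overlap and the second of which shares 1971 bases with ANXA8. The counts by chromosome are a description of few genes.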

How the data were processed

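RNA of 4 HCC1954 samples, 2 shCON and 2 shZDHHC15, was analysed. The authors deposited 1 table of raw counts of reads per gene, not normalized, from NEBNext Ultra libraries of total RNA. The submitters' processing notes name HISAT2, StringTie, SAMtools and hg38, and roles, versions and the strand setting are not given in the sources used here. All 58735 genes had the start and end of GENCODE release 29, and the deposited length column equalled the joined exons. Every count column was mapped to a sample by its name, leaving 0 such columns unused.

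After filterByExpr 15817 genes remained. They were fitted in edgeR 4.0.16 under R 4.3.3 (with limma 3.58.1 loaded), using TMM factors of 0.962 to 1.03 and the current quasi-dispersion of glmQLFit. glmQLFTest gave the p-values, which were adjusted by Benjamini-Hochberg. The common biological coefficient of variation was 0.0877. Each standard error is the log2 fold change over the root of F, and 95% intervals from the degrees of freedom of the fit. Replicates differed by more than sampling noise in a chi-square test (13 per degree of freedom over the members in shCON and 5.41 in shZDHHC15). A permutation test of 2 against 2 samples cannot go below p = 0.333. The intervals include the spread between samples, and floors of 3 counts cover counting error only. DESeq2 1.42.0 was an alternative. Near-identical transcripts were found with BLAST+ 2.17.0, and tables were made with Python 3.11.15. The count test was tested on simulated data.

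Named genes were the 10 most abundant per kb, the 10 largest rises and falls among called members without overlap, list members, genes beside the count limit, the 5 smallest changes among the 30 most counted, and called opposite-strand pairs. Protein-coding genes with shared exons, IRS2, SCD, LNCAROD and several neighbours were named after their values were seen. The members and lists were chosen with earlier results of these data known. Promoter and microRNA sequences are from RefSeq (GRCh38.p14), found for 30 members and 7 members, and NORAD stretches from GENCODE. Members on chromosome 8 were not searched for microRNAs. Values of some single genes are not reported here.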

Additional observations from a re-analysis of the deposited data

How the results depend on the processing

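All 48 calls kept their direction in 13 refits, where 8 of the 14 rises and 25 of the 34 falls were called every time. The number of members called higher was 9 by the DESeq2 Wald test, 22 of 166 and 5 of 34 with minimum sums of 200 and 1000 counts, and 6 at 2-fold or more. The number called lower was 49 of 166 with a minimum of 200, 17 of 34 with 1000 and 10 at 2-fold or more. The median log2 fold change was -0.20 with library size only (which moved the median of all genes from 0.02 to 0.09), -0.31 with upper-quartile factors, -0.30 by DESeq2 and without a filter, and -0.21 and -0.33 with minimum sums of 200 and 1000. With 1 sample left out, which leaves a lone sample assumed to vary like the other group, members called higher ranged from 9 (without shZDHHC15 1) to 16, members called lower from 28 to 38, the median from -0.30 to -0.24, list members called higher from 1 to 3 and protein-coding genes called lower from 1671 to 2796. List members called higher were 1 by DESeq2, without a filter and by glmTreat against a fold change of 1.2. Antisense genes called lower were 20 without a filter, and protein-coding genes by glmTreat 1560 higher and 1409 lower. For named genes 520 values kept their side of the threshold, 47 lost it and 5 gained it. At least 10 counts in every sample left no value for ZDHHC15.
Same-numbered samples did not deviate together (r = 0.0344 over 15817 genes). With 2 samples per group this r cannot show whether they were handled as pairs, which the labels do not say. A replicate block gave 15 members higher and 36 lower, kept all 48 calls and added 3, NORAD among them (adjusted p = 0.0315).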
